A study of Mus musculus with 17 samples.

Results

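The 4 Nkain genes (Nkain1, Nkain2, Nkain3 and Nkain4) and the pump beta subunit genes Atp1b1 and Atp1b2 were followed in RNA-seq counts of adult mouse hippocampus. These 6 genes were picked by symbol from the 55450 genes counted, with their values in these libraries already known, so their values are given as a description without a test. All 6 were among the 17615 genes that passed the filter on low counts.

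The study asked whether raising Kcna1, which encodes the potassium channel Kv1.1, alters gene expression in mice with temporal lobe epilepsy. Epileptic mice (C57BL/6J, wild-type) had received kainic acid in the right amygdala, a treatment that provokes prolonged seizures at once and spontaneous ones afterwards, and control mice were sham controls without kainic acid. Every group carried a nuclease-dead Cas9 fused to a transcriptional activator, delivered by adeno-associated virus into the right ventral hippocampus and switched on by doxycycline through a transactivator under a Camk2a promoter. The guide RNA was sgLacZ, which has no target in the mouse genome, in 5 control libraries (control sgLacZ) and 6 epileptic libraries (epileptic sgLacZ), and sgKcna1, directed at the Kcna1 promoter, in 6 epileptic libraries (epileptic sgKcna1). The Camk2a promoter favours excitatory neurons, so the design directs the activator mainly to those cells on the injected side. The RNA is labelled as hippocampus without side or cell type. The labels do not say whether each library is a separate mouse, and the spread between libraries is taken as the error throughout.

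The sodium-potassium pump uses ATP to move sodium out of the cell and potassium in, and so restores the ion gradients that neuronal firing runs down. Each pump joins a catalytic subunit to a glycosylated beta subunit that is needed for folding and delivery to the membrane. Atp1b1 encodes the main neuronal beta subunit and Atp1b2 the form first described on astrocytes as an adhesion molecule. The NKAIN proteins are small membrane proteins that bind the beta subunit, and their part in pump function is little understood.

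The genes lie apart in the genome (RefSeq, GRCm38.p6). Nkain1 lies on chr4:130530131-130574216, Nkain2 on chr10:31689310-32897174, Nkain3 on chr4:20111029-20780709 and Nkain4 on chr2:180934766-180954937. Atp1b1 lies on chr1:164437099-164458355 and Atp1b2 on chr11:69599728-69605978. RefSeq's promoter table held 3 of the 6 genes. Their 250 bases before the start are shown because they set the member whose epileptic sgLacZ libraries all lay above controls (Nkain1) beside a relative whose groups overlapped (Nkain2) and a beta subunit whose reading turned on its opposite end (Atp1b1). Capitals mark matches to GGGCGG, the GC box core bound by Sp1-type factors, on either strand.
Nkain1 (chr4:130574037-130574286, minus strand): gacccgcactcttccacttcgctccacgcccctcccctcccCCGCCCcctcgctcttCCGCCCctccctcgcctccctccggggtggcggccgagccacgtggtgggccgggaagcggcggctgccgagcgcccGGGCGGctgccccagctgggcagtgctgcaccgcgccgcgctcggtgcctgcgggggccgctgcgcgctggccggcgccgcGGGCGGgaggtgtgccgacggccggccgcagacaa
Nkain2 (chr10:32889916-32890165, minus strand): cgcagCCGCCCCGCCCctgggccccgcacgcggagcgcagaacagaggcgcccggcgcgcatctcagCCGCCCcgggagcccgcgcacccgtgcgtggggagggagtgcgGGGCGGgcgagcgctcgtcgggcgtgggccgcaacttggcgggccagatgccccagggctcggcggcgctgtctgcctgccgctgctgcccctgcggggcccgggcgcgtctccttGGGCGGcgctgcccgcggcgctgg
Atp1b1 (chr1:164458356-164458605, minus strand): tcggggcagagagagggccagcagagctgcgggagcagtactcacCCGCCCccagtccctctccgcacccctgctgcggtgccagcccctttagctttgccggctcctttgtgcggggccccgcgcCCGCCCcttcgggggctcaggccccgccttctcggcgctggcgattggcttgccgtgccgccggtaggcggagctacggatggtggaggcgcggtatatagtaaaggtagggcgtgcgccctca
The starts used for both Nkain genes lie inside the widest RefSeq span of the gene. The windows held 4 matches in Nkain1, 5 in Nkain2, where a pair overlap, and 2 in Atp1b1, and 32.7% of all 32851 promoters in the table held at least 1. Their GC content was 80.4% for Nkain1, 81.6% for Nkain2 and 70.4% for Atp1b1, against a median of 52.4% over the table. The cAMP response element TGACGTCA was found in none of the 3 windows and in 1.55% of all promoters, and the TATA motif TATAAA in none of the 3 and in 12.4%. The E-box CACGTG was present once in Nkain1, in neither of the others, and in 6.02% of all promoters. A match describes these letters only.

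Library depth ran from 11839240 to 28311328 reads in genes, so 3 reads were worth 0.106 to 0.253 CPM. CPM is the count of a gene relative to a fixed total of reads in genes, with TMM scaling between libraries for all values given after this floor. Unmapped reads made up 19.5 to 27.7% in control sgLacZ, 11.0 to 24.1% in epileptic sgLacZ and 19.1 to 41.5% in epileptic sgKcna1. Epileptic sgLacZ replicate 4 was the deepest library with the lowest unmapped share, and epileptic sgKcna1 replicate 12 was the shallowest with the highest. At least 1 CPM of both Xist and the Y-linked gene Ddx3y was found in 6 of the 17 libraries, and the labels give no sex. Kcna1, the targeted gene, measured 35.1 ± 6.71 CPM (SD, n = 5) in control sgLacZ, 30.1 ± 14.5 (n = 6) in epileptic sgLacZ and 38.2 ± 46.5 (n = 6) in epileptic sgKcna1, with overlapping groups. The last mean rested on replicate 12 at 133 CPM. The other 5 epileptic sgKcna1 libraries held 13.9 to 29.5 CPM of Kcna1 (19.3 ± 6.16, n = 5), an omission made after seeing the data. Replicate 4, the highest epileptic sgLacZ library at 56.7 CPM, was kept. The median of all 6 was 19.1 CPM against 27.6 CPM in epileptic sgLacZ, so the direction of the difference in means turned on replicate 12. With all libraries its log2 fold change between these groups was 0.32 (SE 0.47, edgeR adjusted p = 0.71). By qPCR the study reported raised Kcna1 in hippocampi given sgKcna1, relative to the contralateral side, and it saw no clear rise by RNA-seq. Markers of neurons, glia and vessels were present in every group. The choroid plexus list, whose genes mark the tissue that secretes cerebrospinal fluid, summed to 294 to 12572 CPM across libraries. The comparisons share libraries with each other, so the values of a gene in the 3 comparisons are not independent.

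Nkain1 was the member with the widest spread between groups. Its level in the control sgLacZ libraries was 5.52, 6.20, 6.44, 5.73 and 5.19 CPM. In epileptic sgLacZ it ran from 7.52 through a median of 22.1 to 34.8 CPM, and in epileptic sgKcna1 from 4.20 through 9.62 to 14.9 CPM. Every epileptic sgLacZ library thus lay above every control library, while the epileptic sgKcna1 libraries overlapped both other groups. The group means were 5.82 ± 0.51 (SD, n = 5), 21.2 ± 10.7 (n = 6) and 10.2 ± 3.88 CPM (n = 6). The SD of the epileptic sgLacZ group was thus far larger than that of controls, and 3 of its libraries (replicates 4, 7 and 9) lay between 27.7 and 34.8 CPM against 7.52 to 16.4 CPM in the other 3.

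The log2 fold change of Nkain1 was 1.87 (SE 0.35) in epileptic sgLacZ against control sgLacZ, a 3.65-fold difference. It was -1.05 (SE 0.31) in epileptic sgKcna1 against epileptic sgLacZ, and 0.82 (SE 0.34) in epileptic sgKcna1 against control sgLacZ. Over 11 alternatives other than the omission of 1 library, these values ran from -1.10 to -0.42 and from 0.79 to 0.97. Nkain1 was the 1 member called in the first comparison by the fit over all genes (edgeR, adjusted p below 0.05), in which 11.0% of tested genes were called (7.26% higher and 3.76% lower) and 2.00% lay wholly above controls. No member, and no gene among all 17615, was called in the other 2 comparisons. In these, 0.483% and 1.14% of tested genes had groups that did not overlap. Since Nkain1 was chosen with these values known, nothing is read from its call. It was lost when any of control sgLacZ replicates 13, 14, 16 or 23 or epileptic sgLacZ replicates 4, 7 or 9 was left out, with log2 fold changes of 1.67 to 2.04 over all 17 omissions.

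**Figure D1:**
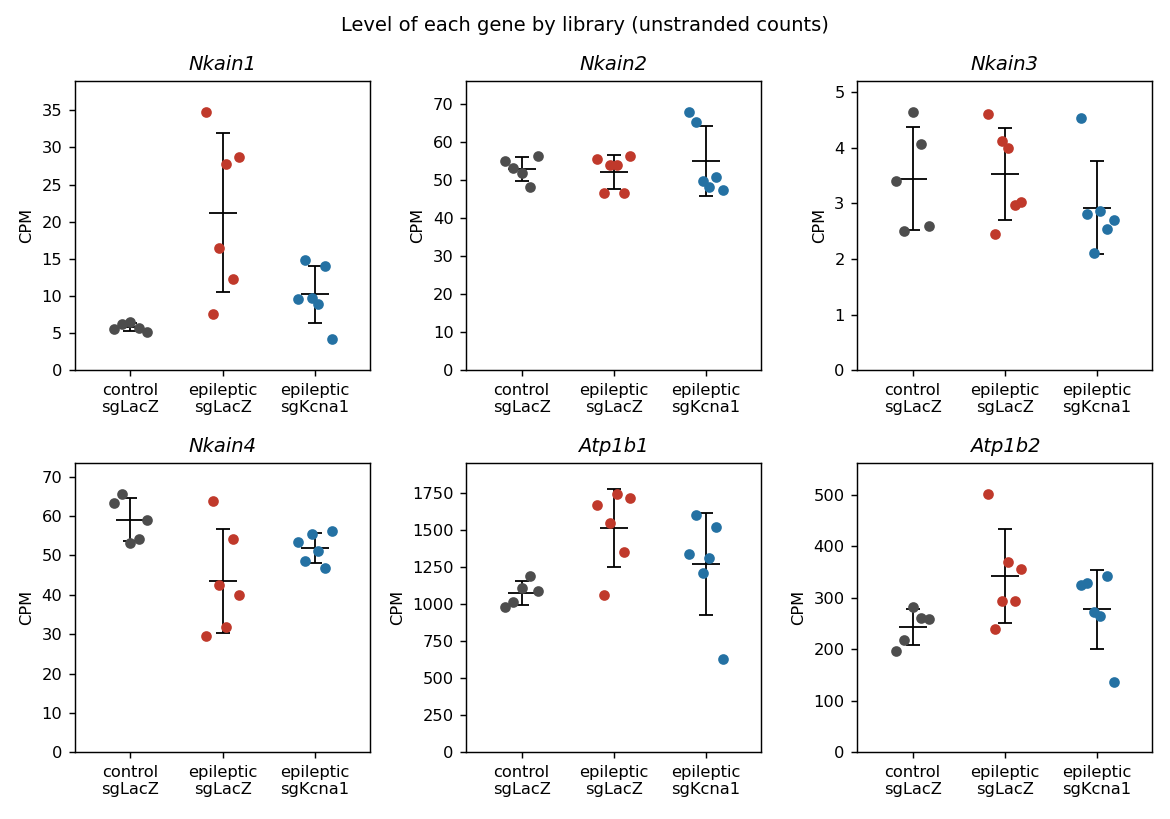
Level in CPM (linear axis from 0) of the 6 genes in each library, with 1 point per library and bars for the mean and SD of each group (n = 5, 6 and 6). Nkain1 in epileptic sgLacZ spans 7.52 to 34.8 CPM and lies above all 5 control libraries, whereas Nkain2 and Nkain3 overlap in all groups.

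Nkain2 and Nkain3 showed no such spread. Nkain2, the Nkain gene with the longest span, measured 55.1, 53.3, 51.9, 48.2 and 56.3 CPM in control sgLacZ, 46.6 to 56.4 CPM (median 54.0) in epileptic sgLacZ and 47.3 to 67.9 CPM (median 50.4) in epileptic sgKcna1. The groups overlapped, and the highest values were those of epileptic sgKcna1 replicates 1 and 2, at 67.9 and 65.4 CPM, above the 47.3 to 51.0 CPM of the other 4. Its log2 fold changes in the 3 comparisons, in the order given for Nkain1, were -0.02 (SE 0.11), 0.07 (SE 0.10) and 0.05 (SE 0.11), each smaller than its error. Nkain3 was the member with the lowest level, resting on 29 to 135 reads a library. It measured 3.41, 2.50, 4.64, 4.06 and 2.59 CPM in control sgLacZ, 2.45 to 4.60 CPM (median 3.50) in epileptic sgLacZ and 2.11 to 4.53 CPM (median 2.75) in epileptic sgKcna1. These groups overlapped as well, and the log2 fold changes of Nkain3 were 0.04 (SE 0.23), -0.27 (SE 0.22) and -0.23 (SE 0.24).

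Nkain4 leaned the other way from Nkain1. It measured 63.4, 65.5, 53.3, 54.2 and 59.1 CPM in control sgLacZ, 29.5 to 63.8 CPM (median 41.2) in epileptic sgLacZ and 46.8 to 56.3 CPM (median 52.3) in epileptic sgKcna1. Epileptic sgLacZ again held the widest range and overlapped both other groups. The log2 fold changes of Nkain4 were -0.44 (SE 0.16), 0.25 (SE 0.15) and -0.19 (SE 0.16). The libraries stood in nearly opposite order for these 2 genes. Within epileptic sgLacZ, replicate 4 had the most Nkain1 (34.8 CPM) and the least Nkain4 (29.5 CPM), and replicate 5 the least Nkain1 (7.52 CPM) and the most Nkain4 (63.8 CPM). Part of the Nkain4 difference depended on how reads were counted. Reads that fall in Nkain4 and in Gm14341 at once, which unstranded counting leaves out, made up 5.41 to 13.5% of all Nkain4 reads in control sgLacZ, 10.9 to 28.7% in epileptic sgLacZ and 1.15 to 19.0% in epileptic sgKcna1. With these reads included by adding both strand counts, the log2 fold changes of Nkain4 were -0.25 (SE 0.12), 0.16 (SE 0.12) and -0.09 (SE 0.12).

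Atp1b1 appeared higher in epileptic sgLacZ only when reads shared with a neighbouring gene were left out. In unstranded counts it measured 983, 1015, 1109, 1190 and 1087 CPM in control sgLacZ, 1060 to 1744 CPM (median 1609) in epileptic sgLacZ and 629 to 1603 CPM (median 1326) in epileptic sgKcna1. The epileptic sgLacZ libraries other than replicate 5 lay above every control, and replicate 5 lay within their range. The log2 fold changes of Atp1b1 on this scale were 0.49 (SE 0.18), -0.26 (SE 0.17) and 0.24 (SE 0.18). The counts of both strands added together gave -0.04 (SE 0.09), 0.00 (SE 0.08) and -0.03 (SE 0.09) for the same comparisons, so none exceeded its error.

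The reads behind this gap also fell in Nme7, a nucleoside diphosphate kinase family gene. In RefSeq, Nme7 (chr1:164307524-164437300) and Atp1b1 overlap by 202 bp at chr1:164437099-164437300, the 3′ end of Atp1b1. The annotation used in counting may give another overlap. The shared reads summed to 311341 over the 17 libraries for Atp1b1 and 311368 for Nme7. The part of Nme7 outside the overlap held 13.1 ± 1.74 CPM (n = 5) in control sgLacZ, against 1166 ± 111 CPM of shared reads. Which gene a shared read came from cannot be told from these counts. Adding both strand counts assigns each shared read to both genes.

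The shared part and the rest of Atp1b1 moved in opposite directions across libraries, while their sum stayed nearly level. Reads counted for Atp1b1 alone averaged 1077 ± 81.3 CPM (n = 5) in control sgLacZ, 1515 ± 264 (n = 6) in epileptic sgLacZ and 1269 ± 345 (n = 6) in epileptic sgKcna1. Shared reads averaged 1166 ± 111, 690 ± 246 and 924 ± 147 CPM in the same order. The sums of the parts were 2243 ± 102, 2205 ± 92.8 and 2194 ± 202 CPM, and the group means of these sums lay closer together than 1 SD. As a share of all Atp1b1 reads, the shared part made up 47.5 to 56.9% in control sgLacZ, 18.9 to 50.7% (median 28.5) in epileptic sgLacZ and 33.6 to 65.5% (median 40.2) in epileptic sgKcna1. Its lowest value was in epileptic sgLacZ replicate 4 and its highest in epileptic sgKcna1 replicate 12, the same libraries that had the lowest and the highest share of unmapped reads.

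**Figure D2:**
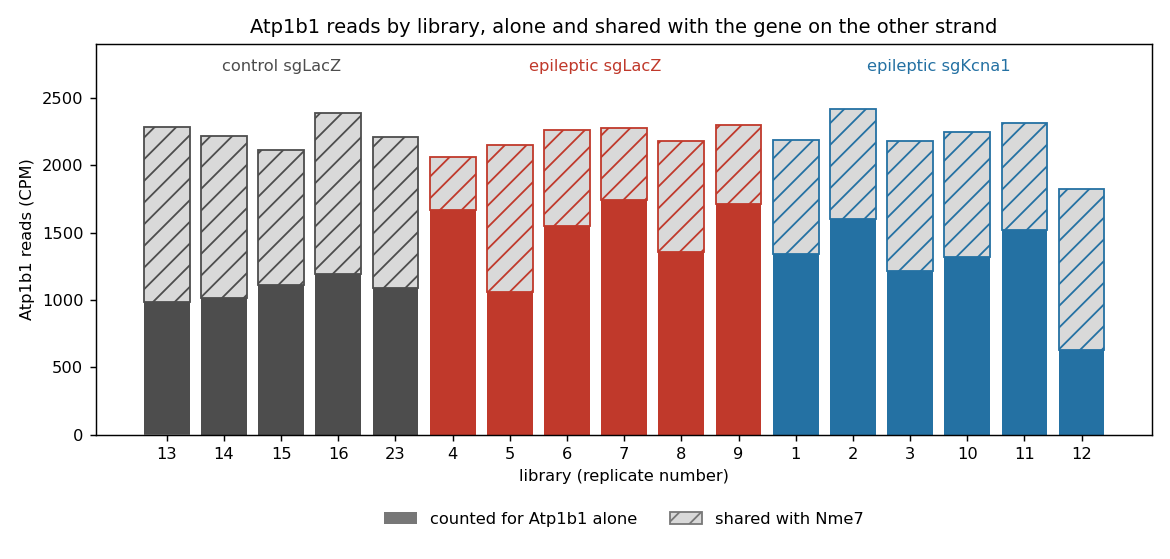
Atp1b1 reads in each library in CPM (bars start at 0), split into reads counted for Atp1b1 alone (solid) and reads shared with Nme7 (hatched), with libraries named by replicate number within their group. The height of the whole bar is 1823 to 2414 CPM in all 17 libraries, while the solid part runs from 629 to 1744 CPM.

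The level of Nkain1 followed the same order of libraries. In epileptic sgLacZ, replicates 4, 7, 9, 6, 8 and 5 had shared parts of Atp1b1 of 18.9, 23.5, 25.5, 31.6, 37.8 and 50.7%. Nkain1 in those libraries, in that order, was 34.8, 27.7, 28.7, 16.4, 12.2 and 7.52 CPM. The libraries with the smallest 3′ shared part thus had the most Nkain1, with replicates 7 and 9 the single pair out of order. In epileptic sgKcna1, replicate 2 (33.6% shared) had 14.9 CPM of Nkain1 and replicate 12 (65.5%) had 4.20 CPM, and the other 4 lay between. The control libraries, at 47.5 to 56.9%, held 5.19 to 6.44 CPM, and epileptic sgLacZ replicate 5, whose share of 50.7% lay among theirs, held 7.52 CPM. No control library had a shared part as small as those of the other 5 epileptic sgLacZ libraries, so the group and this property of the reads overlapped in replicate 5 alone. The part that read position along transcripts, or RNA quality, had in the Nkain1 difference was not tested. With the percentage of unmapped reads as a covariate the log2 fold change of Nkain1 in epileptic sgLacZ against control sgLacZ was 1.21, that of Atp1b1 was 0.19 and that of Atp1b2 was 0.12.

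**Figure D3:**
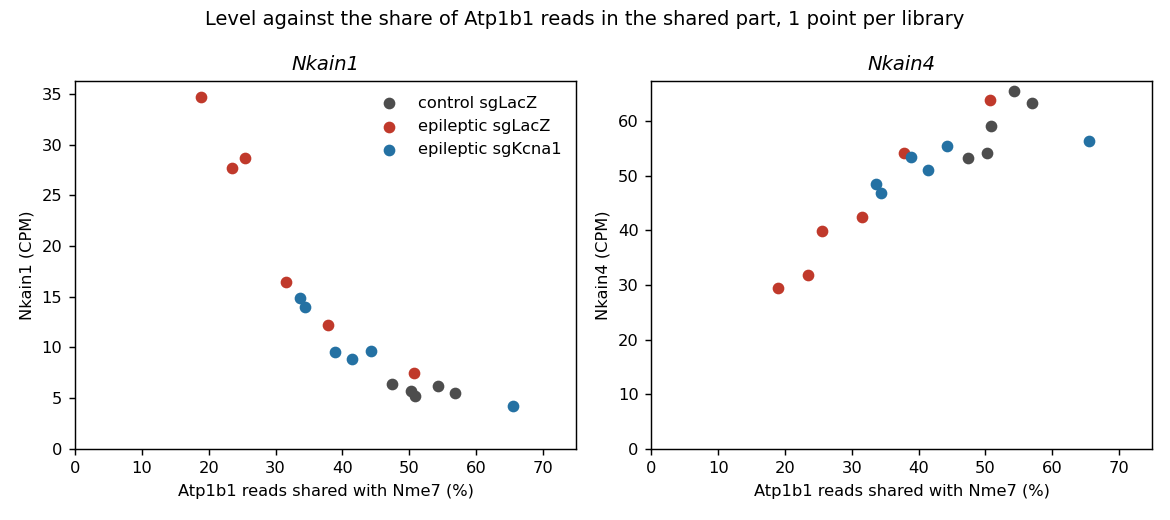
Level in CPM of Nkain1 (left) and Nkain4 (right) against the percentage of Atp1b1 reads shared with Nme7, with 1 point per library coloured by group. Epileptic sgLacZ replicate 4 (18.9%) has the most Nkain1 (34.8 CPM) and the least Nkain4 (29.5 CPM), and epileptic sgKcna1 replicate 12 (65.5%) has the least Nkain1 (4.20 CPM) and 56.3 CPM of Nkain4.

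Atp1b2 had almost no shared reads (at most 0.068% in any library), and its highest and lowest values came from the same libraries. It measured 197, 219, 282, 260 and 260 CPM in control sgLacZ, 239 to 501 CPM (median 325) in epileptic sgLacZ and 136 to 343 CPM (median 298) in epileptic sgKcna1. Epileptic sgLacZ replicate 4 was the highest library of all and epileptic sgKcna1 replicate 12 the lowest, and the groups overlapped. The log2 fold changes of Atp1b2 were 0.49 (SE 0.21), -0.30 (SE 0.19) and 0.19 (SE 0.20), and 0.48 (SE 0.20), -0.29 (SE 0.19) and 0.19 (SE 0.20) with both strand counts added.

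Over the 6 members the median log2 fold change in epileptic sgLacZ against control sgLacZ was 0.27 in unstranded counts and -0.0048 with both strand counts added, against 0.02 over all tested genes under either counting. In epileptic sgKcna1 against epileptic sgLacZ it was -0.26 and -0.13, against -0.01 over all genes.

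**Figure D4:**
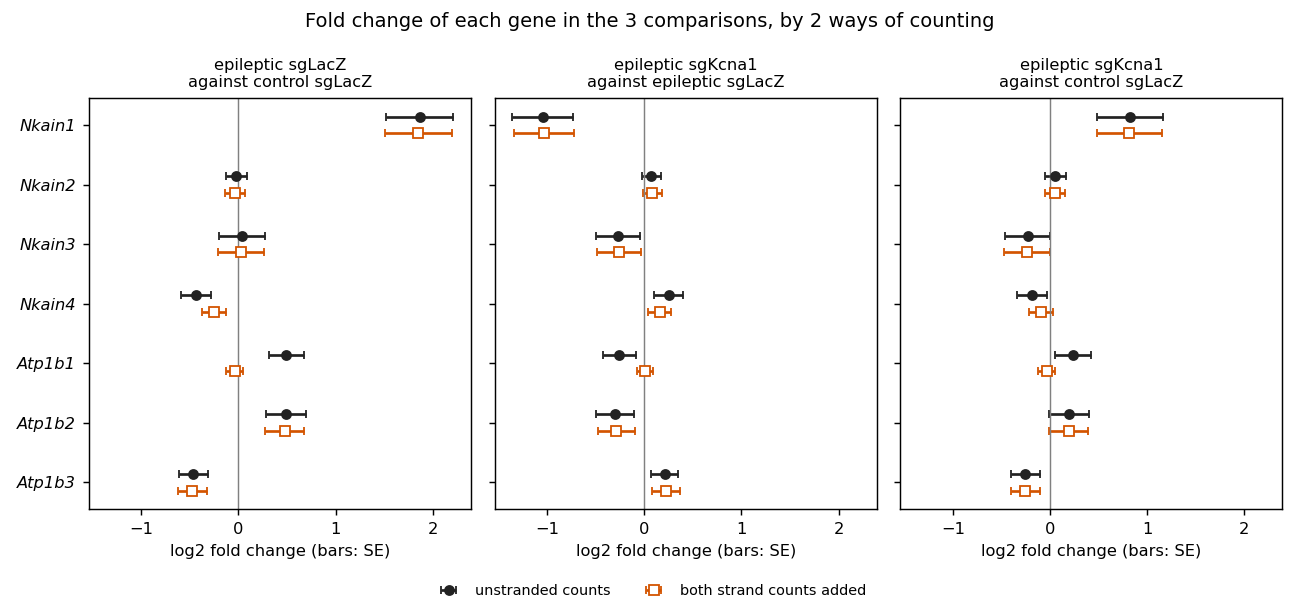
Log2 fold change with its standard error for the 6 genes and the beta subunit gene Atp1b3 in the 3 comparisons, from unstranded counts (filled circles) and from both strand counts added (open squares). The 2 countings lie apart for Atp1b1 (0.49 and -0.04 in epileptic sgLacZ against control sgLacZ) and Nkain4 (-0.44 and -0.25), and close together for Nkain1 (1.87 and 1.85).

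Marker lists of the cell types that could hold these genes were read beside them. The 8 pan-neuronal markers matched summed to 5858 to 6299 CPM in control sgLacZ, 5516 to 5943 in epileptic sgLacZ and 5692 to 6616 in epileptic sgKcna1, with 0 of 8 called higher and 1 lower in epileptic sgLacZ against control sgLacZ. That call was Nefl, named after its values were seen, whose log2 fold change was -0.34 in unstranded counts and 0.04 with both strand counts added, where 0 of 8 were called. The 5 excitatory neuron markers summed to 6754 to 7759, 6329 to 7416 and 6457 to 7676 CPM, with 1 called higher and 0 lower. The 5 dentate granule cell markers summed to 315 to 443, 344 to 434 and 275 to 382 CPM, also with 1 higher and 0 lower. Among all tested genes 7.26% were called higher. The 8 astrocyte markers summed to 3017 to 3397, 3228 to 3955 and 3327 to 3713 CPM, with 2 of 8 called higher. The 6 interneuron markers summed to 1224 to 1532, 819 to 1380 and 995 to 1464 CPM, with none called by edgeR in unstranded counts and 2 of 6 lower with both strand counts added (Sst and Pvalb, named after their values were seen). At an unadjusted p below 0.05, 3 of the 6 were lower, as were 15.9% of all tested genes. The 8 mature oligodendrocyte markers summed to 6756 to 9748, 5147 to 7539 and 2855 to 10778 CPM, also with none called (1 lower unadjusted). Their part in the differences of the members was not tested, and in bulk tissue fewer cells of a type and less RNA per cell cannot be told apart.

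Levels of different genes were compared per kb of transcript, with both strand counts added. This credits to Atp1b1 every read shared with Nme7, on average 51.9% of its reads in control sgLacZ, though their origin cannot be told. It likewise credits to Nkain4 the reads shared with Gm14341. Division by the whole length also takes reads as evenly spread, which was not tested. The lengths came from the mm9 annotation, in which Nkain2 is broken into fragments and was left out. In control sgLacZ, the gene Atp1b1 stood at 839 ± 38.2 CPM per kb (n = 5), Atp1b2 at 77.7 ± 11.1, Nkain4 at 61.7 ± 4.38, Nkain1 at 2.06 ± 0.18 and Nkain3 at 0.68 ± 0.18. Of the neighbours in this order, Atp1b2 (62.7 to 89.9) and Nkain4 (56.7 to 67.9) overlapped, and the others did not. The order was the same in both epileptic groups. In epileptic sgLacZ the mean of Nkain1 was 7.45 ± 3.71 CPM per kb (n = 6), still far below Nkain4 at 51.9 ± 11.6. In epileptic sgKcna1, Atp1b2 (43.5 to 109) and Nkain4 (54.4 to 62.3) overlapped again. Beside them in control sgLacZ, the third beta subunit, Atp1b3, stood at 93.6 ± 7.76 CPM per kb.

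The other genes of the pump family numbered 16, of which 10 were tested. In epileptic sgLacZ against control sgLacZ 1 of the 10 fell and none rose past the adjusted threshold of edgeR's two-sided quasi-likelihood test. Among all tested genes 3.76% were called lower and 7.26% higher. At an unadjusted p below 0.05, 4 of the 10 were lower and 2 higher, beside 15.9% and 18.8% of all genes. The gene called lower at the adjusted threshold was Atp1b3. It measured 210, 199, 178, 172 and 183 CPM in control sgLacZ, 112 to 171 CPM (median 127) in epileptic sgLacZ and 125 to 224 CPM (median 146) in epileptic sgKcna1, so that epileptic sgLacZ lay wholly below controls, as did 2.40% of tested genes. Its log2 fold change was -0.46 (SE 0.15, edgeR adjusted p = 0.049), and -0.48 (adjusted p = 0.044) with both strand counts added. The log2 fold change of Atp1b3 stayed between -0.54 and -0.41 as each of the 17 libraries was left out, and it was called in 3 of these fits. The count of called pump genes was 0 when any library other than epileptic sgLacZ replicates 5 and 8 or epileptic sgKcna1 replicate 12 was left out, and 6 and 4 without replicates 5 and 12.

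The FXYD regulators, small proteins that tune the pump, had 0 of 5 tested genes called, with 2 lower at an unadjusted p below 0.05, a level that 15.9% of all genes reached in that direction.

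In epileptic sgKcna1 against epileptic sgLacZ edgeR called 0 of the 10 other pump genes, with 1 higher and 1 lower at an unadjusted p below 0.05 (8.69% and 10.5% of all genes) and 0 by DESeq2. The difference in Atp1b3 was 0.21 on the log2 scale (SE 0.14, adjusted p = 0.38 in edgeR). In epileptic sgKcna1 against control sgLacZ 0 of 10 were called and 0 passed an unadjusted p of 0.05. Over all genes, DESeq2 called 143 and 39 genes in these comparisons, and an unadjusted p below 0.05 in edgeR was reached by 3387 and 1192.

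Several carriers that use or complement the sodium gradient were higher in epileptic sgLacZ. Of 21 transport genes tested, 9 rose and 0 fell against control sgLacZ (edgeR), where 7.26% of all genes were called higher. Their median log2 fold change was 0.60 against 0.02 over all genes. The lists of exchangers and calcium pumps were chosen with earlier results of these data known. The excess over all genes is therefore a description, and nothing is concluded from it. The count of 9 became 2 with the percentage of unmapped reads as a covariate and 4 with sex (read from Xist and Y-linked genes). The sex reading is uncertain, since 6 libraries held at least 1 CPM of both Xist and Ddx3y. It gave 3 males of 5 in control sgLacZ, 2 of 6 in epileptic sgLacZ and 4 of 6 in epileptic sgKcna1. Among sodium-calcium exchangers, Slc8a2 measured 174 ± 28.2 CPM (n = 5) in control sgLacZ and 324 ± 104 (n = 6) in epileptic sgLacZ (log2 fold change 0.90, SE 0.22, adjusted p = 0.033 in edgeR). Slc24a4, a potassium-dependent exchanger, measured 6.24 ± 1.63 and 13.6 ± 6.10 CPM (1.13, SE 0.27, edgeR adjusted p = 0.033). These 2 of 7 exchangers were called, and their groups overlapped.

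Among the calcium pumps 4 of 6 tested were called higher. Atp2b3, a plasma membrane pump, measured 18.0 ± 2.31 CPM (n = 5) in control sgLacZ and 68.6 ± 55.0 (n = 6) in epileptic sgLacZ, with a range of 15.1 to 169.7 that took in the controls (log2 fold change 1.93, SE 0.41, edgeR adjusted p = 0.032). The other calls were Atp2b2 (0.50, SE 0.15), also of the plasma membrane, and the endoplasmic reticulum pumps Atp2a2 (0.60, SE 0.17) and Atp2a3 (0.63, SE 0.18). The sodium-proton exchangers gave 3 calls of 8. Slc9a7, the Golgi form, had a log2 fold change of 1.95 (SE 0.52), which was 1.27 and no longer called without epileptic sgLacZ replicate 4, the library with its highest level (13.7 CPM against a group median of 3.14). Slc9a3 was at most 0.167 CPM in controls and 0.928 CPM in epileptic sgLacZ, on at most 27 reads, and was called in unstranded counts alone (adjusted p = 0.053 in edgeR for the sum of both strands). With both strand counts added 8 of 22 tested transport genes were higher and 1 lower. The count of 9 was 0 to 14 as single libraries were left out. It was 0 without any of control sgLacZ replicates 13, 14, 16 or 23 or epileptic sgLacZ replicates 4, 7 or 9, 2 without control replicate 15, 4 without epileptic sgLacZ replicate 6, 5 without epileptic sgKcna1 replicates 3 or 10, and 14 without epileptic sgLacZ replicate 5.

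In epileptic sgKcna1 against epileptic sgLacZ edgeR called 0 of the 21 transport genes, with 8 lower and 0 higher at an unadjusted p below 0.05 (10.5% and 8.69% of all genes) and 2 called by DESeq2. Without epileptic sgLacZ replicate 5 the count was 7. Against control sgLacZ 0 were called, with 2 higher and 1 lower unadjusted (4.29% and 2.48% of all genes).

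Genes most like each member were found by Pearson's r of log2 CPM over the 17 libraries, which share groups, depth and preparation, so r is given without a p. The genes most like Nkain1 were Trim3 (r = 0.98), Calcoco1 (0.98) and Ptprn2 (0.97), and after removal of group means the values were 0.97, 0.96 and 0.96. Those most like Nkain4 were mt-Atp6, Rpl27 and 0610009D07Rik (each 0.98), a mitochondrial and a ribosomal protein gene among them. For Atp1b1 in unstranded counts they were Ntng2, Pgam1 and Usp12 (each 0.98), and for Atp1b2 Zc3h7b, Wiz and Pdk2 (each 0.98). The closest to Nkain2 (Fam110b, 0.78) and Nkain3 (Dpyd, 0.76) were less alike. Among the members, Nkain1 and Nkain4 had r = -0.89, Nkain1 and Atp1b2 0.85, and Nkain1 and Atp1b1 0.88 in unstranded counts but 0.18 with both strand counts added. The likeness of Nkain1 and Atp1b1 thus lay in the reads outside the shared part.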

How the data were processed

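RNA-seq was measured in 17 hippocampal libraries of polyadenylated RNA, 5 control sgLacZ, 6 epileptic sgLacZ and 6 epileptic sgKcna1, grouped by their titles. The authors aligned reads to mm10 with STAR 2.7, per the submitters' processing notes, and deposited raw counts per gene in 3 columns (unstranded, forward, reverse), and the annotation release was not given in the sources used here. The ratio of reverse to forward reads was 0.994 to 0.998, and unstranded counts were therefore taken. The labels name a kit without strand information and the study's methods a stranded one. A read inside 2 genes on opposite strands is lost from unstranded counts, and the excess of both strand counts over the unstranded count was taken as the shared part.

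Counts were fitted in R 4.3.3 with edgeR 4.0.16 over all 17 libraries (filterByExpr, TMM, a coefficient per group, two-sided quasi-likelihood F test, Benjamini-Hochberg adjustment over 17615 genes, or 19308 with both strands added, threshold 0.05). The steps were tested on simulated data. Alternatives used limma 3.58.1 and DESeq2 1.42.0. Libraries of 1 group differed by more than sampling noise in all 40 pairs (chi-square per degree of freedom 8.67 to 220). Printed SDs are over libraries, and the floor of 3 reads covers counting error only. Each printed SE is the size of the log2 fold change divided by the root of F in the edgeR fit. It thus rests on a spread pooled over the 3 groups and moderated across genes.

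The members and gene lists were chosen with earlier results of these data known. Always named were the members, Atp1b3 and Kcna1, and of the other pump and transport genes at most the 10 with the smallest p among those past the threshold in any comparison. Some genes that the rule names are not reported here, though the counts over lists include them. Likeness names 3 genes a member, among tested genes averaging 5 CPM or more with at most 5% shared reads. Of 23 transport genes listed, 22 had a symbol in the table, and Map2 of the marker lists had none.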

Additional observations from a re-analysis of the deposited data

Results flagged for a closer look

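Nkain3 in epileptic sgKcna1 replicate 1 stood apart from the rest of its group. It measured 4.53 CPM in unstranded counts, with the nearest library at 2.85 CPM, a gap of 0.69 of the whole range of the group. With both strand counts added it measured 4.09 CPM, with the nearest library at 2.59 CPM and a gap of 0.69 of the range. These were the only values set apart among 36 sets of libraries tested (6 genes, 3 groups and 2 countings), where chance sets apart about 1 in 20. Nkain3 had 0 shared reads in every library, so the 2 countings hold the same reads and the 2 values are 1 observation. Nor are the 36 sets separate tests, since the 2 countings of a gene share reads. The value lay within the range of Nkain3 in control sgLacZ, 2.50 to 4.64 CPM.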

How the results depend on the processing

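No paired analysis was possible because the replicate numbers are not shared between groups. No gene called in the main fit and followed through the alternatives changed direction. The transport gene called lower with both strand counts added, Slc24a5, was not called in the main fit. Its log2 fold change in epileptic sgLacZ against control sgLacZ was 0.90 in unstranded counts and -0.77 with both strand counts added. On average 98.5% of its reads in control sgLacZ were shared with another gene. In epileptic sgLacZ against control sgLacZ 1940 genes were called by edgeR, and 3686 by DESeq2, 7301 by limma voom with quality weights, 3045 in a fit of these groups alone, 428 with the percentage of unmapped reads and 516 with sex (read from Xist and Y-linked genes) as a covariate, and 0 to 5526 when single libraries were left out (0 without control sgLacZ replicates 13, 14, 16 or 23 or epileptic sgLacZ replicates 4, 7 or 9, and 5526 without epileptic sgLacZ replicate 5). For the other pump genes the count of 1 became 2, 6, 3, 0 and 0 under the same alternatives and 0 to 6 without single libraries. For transport genes the count of 9 became 15 by voom, 2 with unmapped reads and 4 with sex as a covariate, and 0 to 14 without single libraries. Without epileptic sgLacZ replicate 4 and epileptic sgKcna1 replicate 12 together, chosen after seeing the data, 3106 genes and 3 other pump genes were called, and 3801 and 3 with both strand counts added as well. Both strand counts with unmapped reads as covariate gave 572 genes, 0 other pump genes and 3 transport genes. In epileptic sgKcna1 against epileptic sgLacZ the count of 0 genes became 143 (DESeq2), 12 (voom), 1 (no filter) and 0 to 1508 without single libraries (1508 without epileptic sgLacZ replicate 5), with 2 transport genes by DESeq2 and 0 to 7 without single libraries. In epileptic sgKcna1 against control sgLacZ it became 39 (DESeq2), 71 (voom), 266 (unmapped reads), 88 (both libraries left out), 64 (the same with both strand counts), 331 (both strand counts and unmapped reads) and 0 to 14 without single libraries, with 1 transport gene by voom and with unmapped reads in either counting, and 1 other pump gene with both strand counts and unmapped reads. The causes of these shifts were not tested.

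The log2 fold change of Nkain1 in epileptic sgLacZ against control sgLacZ was 1.21 with unmapped reads as covariate and 1.20 with both strand counts as well, and 1.67 to 2.04 without single libraries. That of Atp1b1 was -0.038 with both strand counts, -0.015 with both outlying libraries also left out, 0.19 with unmapped reads as covariate and -0.088 with that covariate in both strand counts. That of Atp1b2 was 0.12 and 0.11 with unmapped reads as covariate, in unstranded and both strand counts. Slc9a3 fell under the count filter in some settings and gave a value in 12 of 17 omissions and 9 of 11 others. Apart from those without single libraries, these shifts of the members exceeded 1 SD, taken on the log2 scale as the root of the mean variance of the groups compared, though the shift of Nkain1 was small against its range in epileptic sgLacZ. The remaining alternatives moved the members by less than 1 SD. Even so, in epileptic sgKcna1 against epileptic sgLacZ the sign for 2 beta subunit genes depended on the setting. Over 11 alternatives other than the omission of 1 library, Atp1b2 ran from -0.34 to 0.10 and Atp1b1 from -0.30 to 0.06. Their sign stayed that of the main fit in 9 and 7 of the 11. A fold change of Nkain3 rests on 29 to 135 reads a library, so small differences could not be seen at this depth.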
